A study of Mus musculus with 8 samples.

Results

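Podocytes are the epithelial cells that wrap the capillaries of the kidney glomerulus, and 9 genes that mark them were followed here through kidneys injured by ischemia-reperfusion (I/R), a halt of blood flow followed by its return. The genes were Nphs1, Synpo, Podxl, Wt1, Tcf21, Ptpro, Magi2, Cdkn1c and Clic3, taken by symbol from a named list, and all 9 were found among the 25239 genes of the count table. The comparison had 4 kidney libraries labelled as myeloid-specific FoxO1 knockouts after I/R and 4 labelled wild-type controls after I/R. No uninjured kidney was analysed here, so every level is that of an injured organ.

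The knockout animals were Lyz2-CreERT2 FoxO1flox/flox mice of 8 to 10 weeks. In them tamoxifen, given into the peritoneum at 75 mg per kg on 5 days in a row, releases a Cre recombinase driven by the lysozyme gene Lyz2 of myeloid cells. The deletion was thus aimed at myeloid cells such as macrophages and neutrophils and not at podocytes. The same protocol text stands for all 8 samples, and whether the controls carried Cre or floxed alleles is not given in the sources used here. In both groups the right kidney was taken out and the left one was deprived of blood by a 35 minute clamp; the time from reperfusion to collection is not given. RNA was made from collagenase-digested tissue. Separate animals are not stated for the libraries, so a p-value here measures library-to-library spread, part of which may be technical.

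Podocytes send out interlocking foot processes, and the gaps between them are bridged by the slit diaphragm, a protein sheet that forms part of the filtration barrier. Nephrin, the product of Nphs1, spans the slit and is anchored to the actin skeleton of the foot process through adaptor and scaffold proteins. The identity of the cell is held by a small set of transcription factors, among them WT1 and TCF21. Mature podocytes hardly divide, and loss of the slit diaphragm leads to leakage of protein into the urine.

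The libraries held 29044405 to 34738914 counts in the knockouts and 32627652 to 35530421 in the controls, and 16873 to 17285 genes were detected in each. Foxo1 stood at 39.3 to 42.9 CPM (counts scaled by library size, with TMM factors) in the knockouts and at 33.0 to 34.5 CPM in the controls (log2 fold change 0.29, SE 0.09, adjusted p = 0.0647). Many other kidney cells express Foxo1, so this level of the whole tissue does not check the deletion in myeloid cells. In bulk tissue fewer cells of a type and less RNA per cell cannot be told apart, which holds for every gene below.

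Of the 9 podocyte genes, 5 were higher in the knockout kidneys and 0 were lower by edgeR's quasi-likelihood test with Benjamini-Hochberg adjustment over all 15000 genes tested, at an adjusted p under 0.05; all adjusted p below are from that fit unless another tool is named. They were Podxl, Synpo, Nphs1, Wt1 and Tcf21. At an unadjusted p under 0.05, 7 were higher and 0 lower; DESeq2 and limma-voom also called 0 lower. Across all genes tested 6.45% were called higher and 6.28% lower. All 9 passed the filter on low counts, and all 9 had a fold change above 0, as did 48.8% of all genes tested. In the same 5 genes each knockout library lay above each control library, which was so for 11.1% of all genes tested; the reverse order held for 0 of the 9 genes and for 10.6% of all genes tested. The median log2 fold change was 0.51 over the 9 genes and -0.01 over all genes tested. The 9 genes together made up 561 to 644 CPM in the knockouts and 363 to 462 CPM in the controls.

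**Figure D1:**
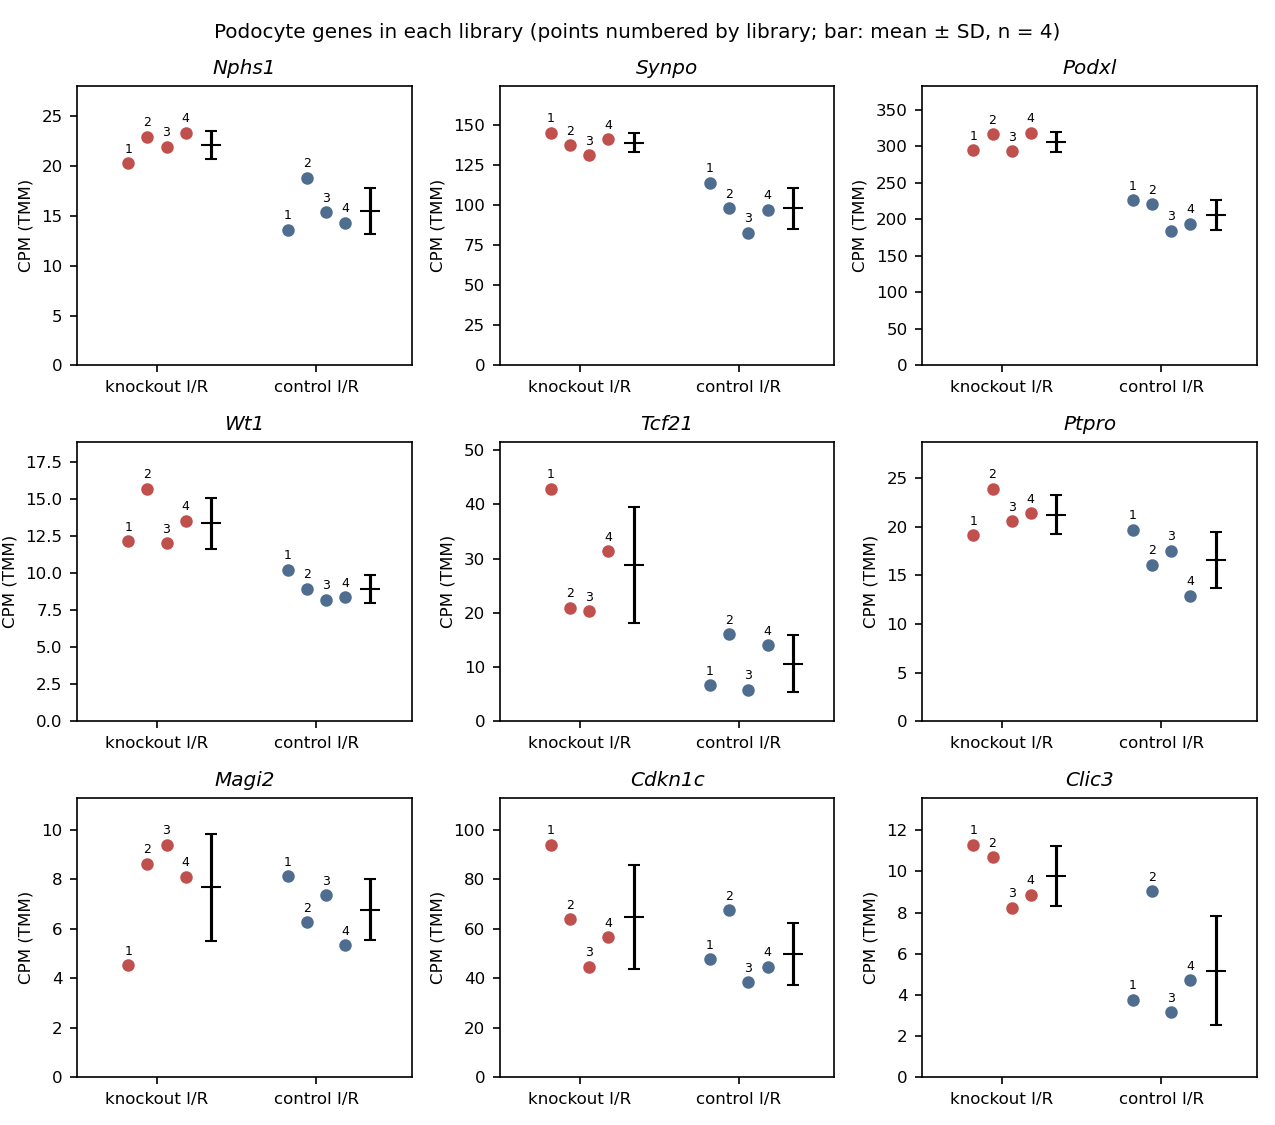
CPM with TMM factors of the 9 podocyte genes in each library, knockout I/R at left and control I/R at right; points are numbered by library and the bar is the mean ± SD (n = 4). In Nphs1, Synpo, Podxl, Wt1 and Tcf21 the groups do not meet, while in Clic3 control 2, at 9.04 CPM, lies among the knockouts.

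The slit diaphragm is represented by Nphs1, which encodes nephrin, and by Magi2, which encodes a scaffold protein that binds nephrin from the inside of the cell. Nphs1 had 20.3, 23.0, 21.9 and 23.4 CPM in knockouts 1 to 4, against 13.6, 18.8, 15.4 and 14.3 CPM in controls 1 to 4. Every knockout lay above every control, with control 2 the nearest. Nphs1 was 1.42-fold higher in the knockout (log2 fold change 0.51, SE 0.14, adjusted p = 0.0354). When each library was left out in turn, the call was lost without control 1, 3 or 4 and without knockout 2, 3 or 4 (adjusted p up to 0.101), and the log2 fold change ran from 0.45 to 0.61. Magi2 did not pass: it had 4.53, 8.63, 9.39 and 8.09 CPM in the knockouts, against 8.12, 6.26, 7.36 and 5.34 CPM in the controls. Knockout 1 was the lowest of all 8 libraries and the other 3 knockouts lay in the upper part of the range. The log2 fold change of Magi2 was 0.18 (SE 0.25, adjusted p = 0.678), and without knockout 1 it was 0.36 (adjusted p = 0.258).

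Synpo and Podxl carried the most counts of the set with Cdkn1c. Synpo encodes synaptopodin, an actin-binding protein of the foot process. It had 145, 137, 131 and 141 CPM in the knockouts, against 114, 98.1, 82.6 and 96.9 CPM in the controls. Every knockout lay above every control, and Synpo was 1.42-fold higher (log2 fold change 0.50, SE 0.12, adjusted p = 0.0214). Its call was lost without control 3 or 4 or knockout 2 or 4, at an adjusted p of up to 0.0631. Podxl encodes podocalyxin, the negatively charged surface sialomucin that keeps neighbouring foot processes apart and that endothelial cells also carry. It had 294, 317, 293 and 319 CPM in the knockouts, against 226, 221, 184 and 194 CPM in the controls. Podxl was 1.48-fold higher (log2 fold change 0.57, SE 0.11, adjusted p = 0.0109) and was the one member called in each of the 8 fits with a library left out, with an adjusted p of up to 0.0414. The endothelial surface gene Cd34, a relative of Podxl, had a log2 fold change of 0.54 (SE 0.30, adjusted p = 0.269).

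Ptpro encodes a receptor-type tyrosine phosphatase of the podocyte surface, known as GLEPP1. It had 19.1, 23.9, 20.5 and 21.4 CPM in the knockouts, against 19.7, 16.1, 17.6 and 12.9 CPM in the controls. Only knockout 1 and control 1 crossed, and the log2 fold change of 0.36 (SE 0.15) did not pass (adjusted p = 0.147; unadjusted p = 0.0391). In limma-voom with sample quality weights Ptpro had a log2 fold change of 0.48 and an adjusted p of 0.0363. That was the only 1 of 16 alternatives to call it. Its weights were smallest for control 1 (0.35) and knockout 1 (0.52), the libraries that crossed.

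Both transcription factors of the set were higher in the knockout. Wt1 encodes a zinc-finger factor needed for podocyte development and upkeep, which directly activates Nphs1 and Podxl in experimental systems. It had 12.2, 15.7, 12.0 and 13.5 CPM in the knockouts, against 10.2, 8.95, 8.20 and 8.36 CPM in the controls, with no overlap. The gene was 1.49-fold higher (log2 fold change 0.58, SE 0.15, adjusted p = 0.0359); without control 2, 3 or 4 or knockout 2, 3 or 4 the call was lost at an adjusted p of up to 0.107. Its antisense neighbour Wt1os had 6 to 24 counts per library, against 258 to 542 for Wt1.

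Tcf21 encodes a basic helix-loop-helix factor of podocytes that stromal cells of the kidney also express. It had 42.9, 21.0, 20.3 and 31.3 CPM in the knockouts, against 6.66, 16.1, 5.81 and 14.1 CPM in the controls. Tcf21 was 2.71-fold higher (log2 fold change 1.44, SE 0.36, adjusted p = 0.0301), the largest fold of the 9 genes and among the upper 2.60% of all genes tested. Its coefficient of variation was 36.9% in the knockouts, the highest of the 9 genes there, and 48.6% in the controls, next to the 51.3% of Clic3; Podxl had 4.56% in the knockouts and 9.89% in the controls. The call was lost without control 1 or 3 or knockout 1 or 4, at an adjusted p of up to 0.0795. Controls 2 and 4 held the upper values and controls 1 and 3 the lower ones.

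Cdkn1c and Clic3 complete the set. Cdkn1c encodes the cell cycle inhibitor p57, a mark of podocytes that have left the cycle, and is an imprinted gene. It had 94.0, 63.9, 44.6 and 56.5 CPM in the knockouts, against 47.8, 67.6, 38.6 and 44.8 CPM in the controls. The groups overlapped widely and the log2 fold change of 0.38 (SE 0.24) did not pass (adjusted p = 0.317); without knockout 1 it was 0.15 (adjusted p = 0.677) and without control 2 it was 0.57 (adjusted p = 0.132). Clic3 encodes a member of the chloride intracellular channel family. It had 11.3, 10.7, 8.24 and 8.86 CPM in the knockouts, against 3.77, 9.04, 3.17 and 4.73 CPM in the controls. Control 2 alone kept the groups from separating. The fold change of Clic3 was 1.89 (log2 fold change 0.92, SE 0.31, adjusted p = 0.0822); it did not pass with all 8 libraries but did without control 2 (log2 fold change 1.33, adjusted p = 0.00680). The libraries do not mark strand, and in the GENCODE annotation of GRCm38 the gene body of Clic3 overlaps that of Paxx, which runs on the opposite strand. How far they overlap was not measured. Paxx stood at 21.2 ± 2.63 CPM in the knockouts and 18.04 ± 5.40 CPM in the controls (SD, n = 4 each; log2 fold change 0.24, adjusted p = 0.487). Control 2, at 25.2 CPM, was the highest library for Paxx; what part of the Clic3 reads stems from Paxx was not tested. The antisense Nphs1os, over Nphs1, had 0 to 2 counts.

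**Figure D2:**
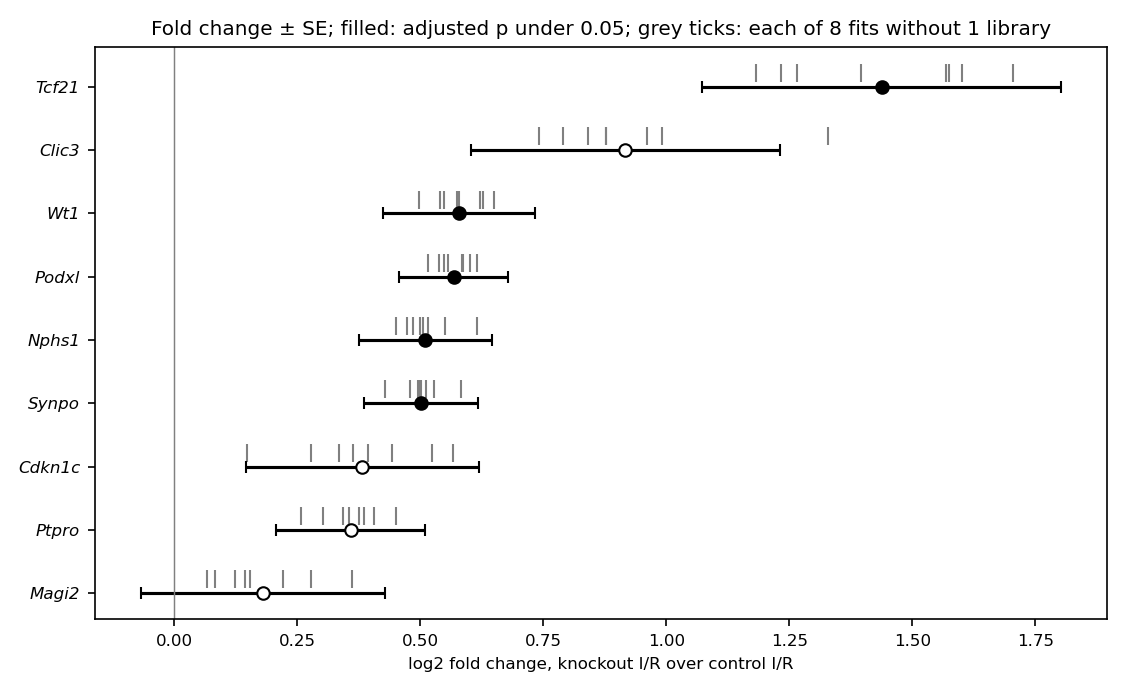
Log2 fold change of knockout I/R over control I/R with its SE for the 9 podocyte genes; filled points passed an adjusted p of 0.05, and grey ticks are the 8 fits that each left out 1 library. All points lie above 0, from 0.18 for Magi2 to 1.44 for Tcf21, and the ticks of Clic3 reach from 0.74 to 1.33.

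Set against the mean of the controls on the log2 scale, the members did not all follow the same libraries. Nphs1, Synpo, Podxl and Wt1 lay between 0.39 and 0.81 above their control mean in each knockout and between -0.24 and 0.29 in the controls. Tcf21, Cdkn1c and Clic3 shared another order: knockout 1 was their highest library, control 2 their highest control and control 3 their lowest library. Magi2 and Ptpro had control 1 as their highest control and control 4 as their lowest, and knockout 1 as their lowest knockout. Control 3 was the lowest library for 6 of the 9 genes, and knockout 1 the highest for 4.

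**Figure D3:**
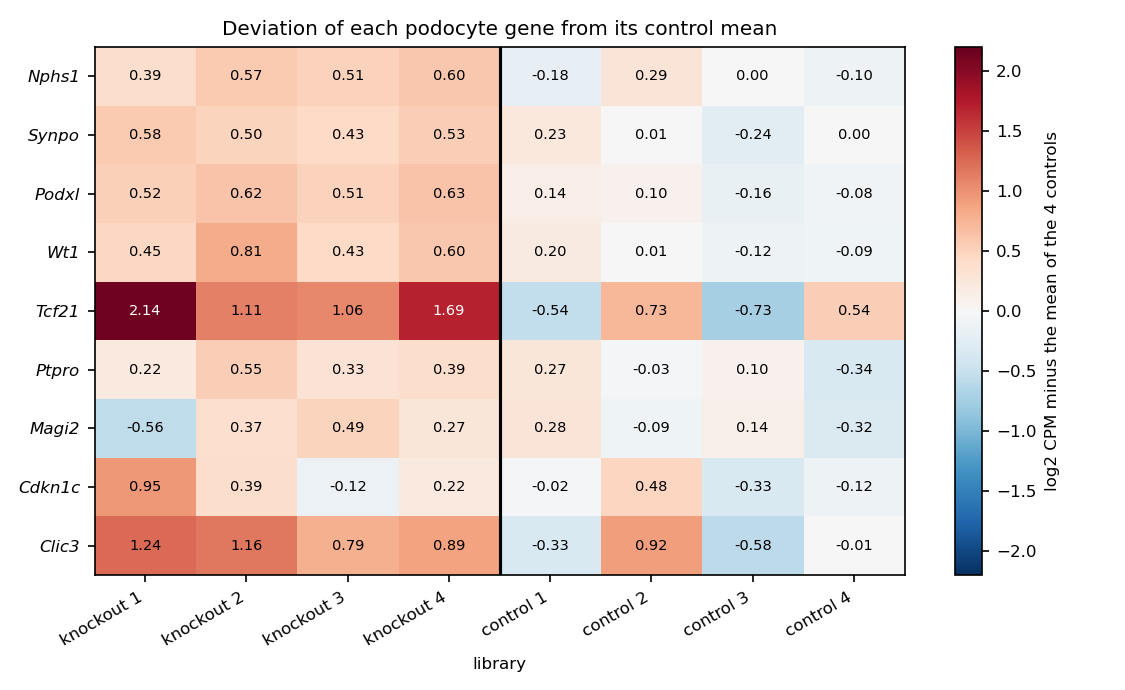
Log2 CPM of each podocyte gene (rows) in each library (columns) minus the mean of the 4 controls, knockouts at left of the line. Nphs1, Synpo, Podxl and Wt1 lie between 0.39 and 0.81 in the knockouts, Tcf21 runs from 1.06 to 2.14, and Magi2 in knockout 1 stands at -0.56.

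The proportions among Nphs1, Synpo and Podxl were much the same in both groups. Per CPM of Nphs1 there were 5.97 to 7.14 CPM of Synpo in the knockouts and 5.21 to 8.35 in the controls. For Podxl the ratio was 13.4 to 14.5 in the knockouts and 11.7 to 16.6 in the controls, so the knockout values lay within the control range in both cases. The ratio of Tcf21 to Nphs1 was 2.11, 0.913, 0.923 and 1.34 in the knockouts, against 0.489, 0.854, 0.378 and 0.982 in the controls. Control 4 lay above knockouts 2 and 3 in that ratio, so the groups overlapped.

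Levels can be compared between genes only per length, and CPM per kilobase of the deposited gene length was used for that. In the knockouts Podxl led with 57.4 ± 2.61, followed by Cdkn1c with 33.4 ± 10.8, Tcf21 with 23.3 ± 8.57 and Synpo with 19.5 ± 0.832 CPM per kilobase (SD, n = 4). Clic3 followed with 12.2 ± 1.82, and Wt1 (4.32 ± 0.551), Nphs1 (3.91 ± 0.243), Ptpro (3.15 ± 0.299) and Magi2 (1.06 ± 0.298) closed the order. The ranges of Cdkn1c and Tcf21, of Tcf21 and Synpo, and of Wt1 and Nphs1 overlapped among the knockouts. In the controls Podxl (38.7 ± 3.83) and Cdkn1c (25.6 ± 6.47) led as well, but Synpo (13.8 ± 1.80) stood before Tcf21 (8.59 ± 4.18), with overlapping ranges; the ranges of Podxl and Cdkn1c overlapped too. Clic3 (6.48 ± 3.32) overlapped with Tcf21 there, and Wt1 (2.89 ± 0.298), Nphs1 (2.75 ± 0.407) and Ptpro (2.45 ± 0.422) overlapped with each other, while Magi2 (0.936 ± 0.169) was the lowest.

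Promoter sequence was at hand for 5 of the 9 genes in the RefSeq promoter table of build GRCm38.p6. The 250 bases before the start of Nphs1 and Tcf21, which were called higher, are shown beside those of Ptpro and Clic3, which were not, so that called and uncalled members can be read side by side. Both strands were searched for 4 short motifs: CANNTG, the E-box read by helix-loop-helix factors such as TCF21, GCGTGGG, a core shared by EGR factors and WT1, TAATTA, a homeodomain core, and TGTTTAC, a forkhead core. In 32851 windows of the same length CANNTG was found in 66.2%, GCGTGGG in 4.30%, TAATTA in 4.84% and TGTTTAC in 3.17%. Matches are in capitals, read 5′ to 3′ on the strand of the gene.
Nphs1 (chr7:30459808-30460057, plus strand): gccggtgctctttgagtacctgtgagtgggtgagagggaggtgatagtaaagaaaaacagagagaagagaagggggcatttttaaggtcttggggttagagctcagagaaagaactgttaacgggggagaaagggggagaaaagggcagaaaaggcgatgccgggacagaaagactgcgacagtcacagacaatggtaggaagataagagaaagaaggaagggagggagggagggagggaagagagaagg
Tcf21 (chr10:22820144-22820393, minus strand): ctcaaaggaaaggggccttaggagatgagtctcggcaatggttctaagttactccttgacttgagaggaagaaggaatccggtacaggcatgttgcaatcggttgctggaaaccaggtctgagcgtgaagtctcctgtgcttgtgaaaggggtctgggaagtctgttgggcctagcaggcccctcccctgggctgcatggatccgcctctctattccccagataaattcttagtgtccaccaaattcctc
Ptpro (chr6:137252049-137252298, plus strand): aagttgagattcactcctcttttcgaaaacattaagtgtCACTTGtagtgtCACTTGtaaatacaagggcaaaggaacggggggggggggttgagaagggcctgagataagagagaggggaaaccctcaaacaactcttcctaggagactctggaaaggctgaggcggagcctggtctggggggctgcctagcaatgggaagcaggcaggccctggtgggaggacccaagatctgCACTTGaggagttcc
Clic3 (chr2:25456593-25456842, plus strand): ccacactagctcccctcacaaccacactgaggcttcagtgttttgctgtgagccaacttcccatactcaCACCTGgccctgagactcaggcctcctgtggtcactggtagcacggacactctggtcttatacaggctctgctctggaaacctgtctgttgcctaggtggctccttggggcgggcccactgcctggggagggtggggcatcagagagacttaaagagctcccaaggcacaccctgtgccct
Ptpro held 3 matches to CANNTG and Clic3 held 1, the nearest 15 and 181 bases before the start. Nphs1 and Tcf21 held no match to any of the 4 motifs in this stretch. Of the 2 start sites listed for Magi2, 1 held GCGTGGG and CANNTG once each, and the other held TAATTA and CANNTG once each. No match overlapped a match to another motif. A match describes the letters in the window and is neither a site nor a cause.

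Other genes of the podocyte were read from lists that leave out the 9 genes. The counts of each list from here on stand beside the 6.45% of all genes tested that were called higher and the 6.28% called lower. A single called gene in a list of this size is near that share. Of 16 measured slit diaphragm and junction partners 0 were higher and 1 was lower (15 did not pass; 2 higher and 1 lower at an unadjusted p under 0.05), with a median log2 fold change of -0.02, against -0.01 over all genes tested. DESeq2 called 2 of them higher and limma-voom 3. The one that fell was Cd2ap, an adaptor that links nephrin to actin and is widely expressed, at 69.96 ± 12.3 CPM in the knockouts and 133.7 ± 54.5 CPM in the controls (SD, n = 4 each; log2 fold change -0.93, SE 0.26, adjusted p = 0.0420). Its call was lost in the fits without control 1 or 3 or any 1 knockout (adjusted p up to 0.115), and its groups overlapped. Kirrel, which encodes the nephrin partner NEPH1, had a log2 fold change of 0.61 (adjusted p = 0.0534), and Crb2, a polarity gene of the podocyte, one of 0.80 (adjusted p = 0.0578). Nck1, an adaptor that binds phosphorylated nephrin, stood at -0.32 (adjusted p = 0.187).

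Of 24 measured genes of the podocyte actin skeleton and foot process 6 rose, 2 fell and 16 did not pass, with a median log2 fold change of 0.03. Those that rose were Slc9a3r2, Kank4, Arhgap24, Ddn, Pdlim2 and Clic5. Slc9a3r2 encodes NHERF2, which ties podocalyxin to ezrin; it stood at 94.8 ± 6.08 CPM in the knockouts and 43.5 ± 4.99 CPM in the controls (SD, n = 4 each; 2.18-fold higher, adjusted p = 7.71e-04). Ezr, the gene of ezrin itself, fell, at 699 ± 23.2 CPM in the knockouts and 957 ± 54.8 CPM in the controls (1.37-fold lower, adjusted p = 0.0265), and so did the cortical actin gene Cttn. Kank4 rose 2.65-fold (adjusted p = 0.00878), and Arhgap24, a GTPase-activating gene, 1.59-fold (adjusted p = 0.0195). Slc9a3r2 and Kank4 kept their calls whichever library was left out. Arhgap24 lost its call without knockout 3 or 4, and Ezr without control 3 or knockout 2, 3 or 4 (adjusted p up to 0.0609 and 0.0828). Ddn, Pdlim2, Clic5 and Cttn lost theirs without control 1 or 3 or knockout 2, 3 or 4, among others (adjusted p up to 0.113). Ezr, Cttn and Slc9a3r2 are also expressed in tubules and vessels.

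Of 13 further podocyte transcription factors and regulators 0 passed (median 0.06). At an unadjusted p under 0.05, 1 was higher and 1 lower, DESeq2 called 0 higher and 1 lower, and limma-voom 1 higher and 0 lower. Yap1, a Hippo pathway co-activator, had a log2 fold change of -0.33 (adjusted p = 0.0586), Lmx1b, a LIM-homeodomain factor, 0.69 (adjusted p = 0.117), Foxc1 0.29 (adjusted p = 0.172) and Zbtb7c 0.45 (adjusted p = 0.204).

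The glomerular basement membrane, on which podocytes rest, moved in both directions. Of 14 measured genes 5 rose (Col4a3, Lamb2, Nid2, Dag1 and Npnt), 3 fell (Itga3, Itgb1 and Cd151) and 6 did not pass, with a median of 0.32. Npnt, which encodes the matrix protein nephronectin, rose 1.63-fold and Dag1, which encodes dystroglycan, 1.48-fold (adjusted p = 0.0239 and 0.0198). Each lost its call without control 4 or knockout 3 or 4 (adjusted p up to 0.0749 and 0.0637). Itga3, which encodes the integrin chain that anchors podocytes to laminin, fell 2.01-fold (adjusted p = 0.00755) and its partner tetraspanin gene Cd151 fell 1.59-fold (adjusted p = 0.00892), both whichever library was left out. Lamb2 and Itgb1 lost their calls without control 3 or knockout 2, 3 or 4 (adjusted p up to 0.0834), and Col4a3 and Nid2 without any 1 library but knockout 1 (adjusted p up to 0.133). The count of risen genes thus ran from 0 to 6. Tubule cells express these matrix and integrin genes as well.

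Of 22 podocyte surface and secreted genes 6 rose, 0 fell (0 also at an unadjusted p under 0.05, in DESeq2 and in limma-voom) and 16 did not pass, with a median of 0.43. Ptprd, a receptor phosphatase gene, rose 1.70-fold (adjusted p = 0.00252), Bmp7, which encodes a bone morphogenetic protein of podocytes and tubules, 1.62-fold (adjusted p = 0.00670), and Angptl2, an angiopoietin-like gene, 2.19-fold (adjusted p = 0.0139); all 3 kept their calls whichever library was left out. Gas1 rose 1.498-fold (adjusted p = 0.0177) and lost its call without control 3 or knockout 2 or 4 (adjusted p up to 0.0528). Mertk and Dpp4 were the others, and both lost their calls without control 3 or knockout 3 (Mertk also without control 1 or knockout 2 or 4; adjusted p up to 0.0763). Vegfa, through which podocytes sustain the glomerular endothelium, stood at 200.4 ± 38.1 CPM in the knockouts and 142 ± 12.8 CPM in the controls (SD, n = 4 each; log2 fold change 0.49, adjusted p = 0.0583) and is named after its values were seen.

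Among neighbouring cell types of the glomerulus, the endothelial and mesangial lists had median log2 fold changes near that of the 9 podocyte genes, and the parietal epithelial list had one of -0.43, with 1 of its 7 genes above 0. Of 17 glomerular endothelial genes 3 rose (Tek, Kdr and Ptprb, between 1.78-fold and 2.09-fold) and 0 fell (0 also by unadjusted p, DESeq2 and limma-voom), with a median of 0.45. Ehd3, the other gene of smallest p, did not pass (adjusted p = 0.122). All 3 calls were lost without knockout 3 and again without knockout 4 (adjusted p up to 0.103), Kdr also without knockout 2, Tek without control 1 or 3 or knockout 1, and Ptprb without control 3 or 4. Of 18 mesangial, pericyte and stromal genes 1 rose, Igfbp5, which stood at 593 ± 86.6 CPM in the knockouts and 197 ± 131 CPM in the controls (SD, n = 4 each; adjusted p = 0.0324) and lost its call without control 1 or 4 or any 1 knockout (adjusted p up to 0.0850); 0 fell. The median of that list was 0.48. Itga8, the mesangial integrin gene, had a log2 fold change of 1.28 (adjusted p = 0.0502), with Gata3 at 0.51 (adjusted p = 0.0538) and Agtr1a at 0.60 (adjusted p = 0.0564). Ren1, the renin gene, was at 0 counts in every library of the deposited table. Whether its reads were lost in counting was not tested, so the 0 is not read as absence of renin RNA. Of 7 genes of the parietal epithelium, which lines the capsule around the glomerulus, 1 fell, Cd44 (3.08-fold lower, adjusted p = 0.0300), which leukocytes and injured tubules also express; its call was lost without knockout 2, 3 or 4 (adjusted p up to 0.0883), and without control 1 its fold change was smaller, at -0.95 on the log2 scale against -1.62. Cldn1 had a log2 fold change of -1.07 (adjusted p = 0.0838), Akap12 -0.96 (adjusted p = 0.209) and Ncam1 -0.43 (adjusted p = 0.305).

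**Figure D4:**
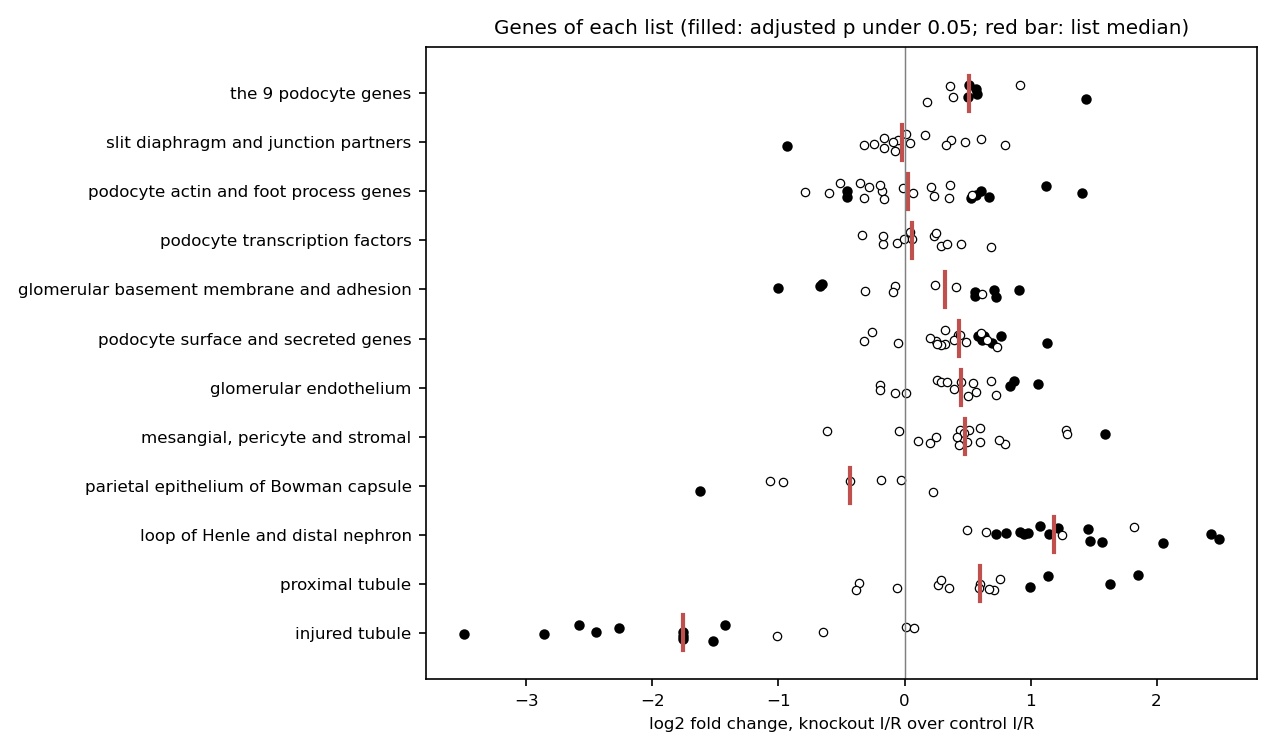
Log2 fold change of knockout I/R over control I/R for each measured gene of the lists; filled points passed an adjusted p of 0.05 and the red bar is the list median. The 9 podocyte genes have a median of 0.51, near the 0.45 of the endothelial and 0.48 of the mesangial list and above the -0.43 of the parietal list, between the injured tubule list at -1.76 and the loop of Henle and distal list at 1.18.

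Tubule and immune genes moved between the same groups, and their part in the podocyte values was not tested. Of 14 injured tubule genes 10 fell and 0 rose (median -1.76), and the 4 of smallest p, Hmox1, Krt8, Havcr1 and Anxa2, fell between 3.38-fold and 5.45-fold, with larger falls for Krt20 (11.3-fold), Sox9 (7.25-fold) and Lcn2 (5.98-fold); the summed level of the list was 6330 to 7172 CPM in the knockouts and 16321 to 30873 CPM in the controls. Of 18 genes of the loop of Henle and distal nephron 14 rose and 0 fell (median 1.18), with a summed level of 9086 to 9611 CPM in the knockouts and 2829 to 4942 CPM in the controls. Of 15 proximal tubule genes 4 rose, Slc7a13, Aqp1, Lrp2 and Miox, and 0 fell (median 0.60). The summed level of all 15 was 25854 to 35819 CPM in the knockouts and 12669 to 25857 CPM in the controls. Lrp2 and Miox lost their calls without control 3 or knockout 2, 3 or 4 (adjusted p up to 0.0673). Of 12 immediate early genes, which can respond to tissue digestion, 8 fell, among them Junb, Btg2, Atf3 and Jun (median -0.92). The summed level of all 12 was 319 to 373 CPM in the knockouts and 530 to 794 CPM in the controls. The 0 counts of these 4 lists were also 0 by unadjusted p, DESeq2 and limma-voom. Of 16 macrophage and neutrophil genes 7 fell and 0 rose (median -0.38), with S100a8, S100a9, Csf3r and Cxcr2 of smallest p. The other 3 that fell were Itgam, Ccr2 and Retnlg. In DESeq2, in limma-voom and at an unadjusted p under 0.05, 1 rose. The summed level of all 16 was 226 to 383 CPM in the knockouts and 224 to 492 CPM in the controls. The count of 7 dropped to 1, S100a8, without knockout 2, and to 4, 3 and 2 without knockouts 1, 3 and 4; it was 6 to 8 without any 1 control, and 4 with the replicate number as a block. Losses reached an adjusted p of 0.109, and without control 1 the log2 fold changes of S100a8, S100a9, Csf3r and Cxcr2 were -2.31, -2.03, -1.61 and -2.10, against -3.08, -2.76, -2.77 and -3.19.

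A pair of further lists holds genes that neighbour the 9 genes or are related to them. How reads were shared between these genes and the 9 was not tested. Of 14 measured neighbouring, antisense and imprinted genes 1 rose, Kcnq1, a potassium channel gene close to Cdkn1c, at 46.1 ± 3.24 CPM in the knockouts and 24.7 ± 4.25 CPM in the controls (SD, n = 4 each; 1.87-fold higher, adjusted p = 0.00400). The noncoding Kcnq1ot1 of the same imprinted region had a log2 fold change of 0.14 (adjusted p = 0.766), and Ccdc3, Fbxw5 and Cd81 had 1.02, 0.26 and 0.38 (adjusted p = 0.110, 0.118 and 0.185). Of 19 measured family relatives, listed in case their reads were confused with those of a member, 2 rose (Clic5 and Ptprb) and 3 fell (Clic1, Cdkn1a and Egr1). Clic5, Ptprb and Egr1 were already counted in the actin, endothelial and immediate early lists. Clic1 fell 1.92-fold and Cdkn1a, which encodes the cell cycle inhibitor p21, 2.44-fold (adjusted p = 0.00627 and 0.0138). Their relatives Clic3 and Cdkn1c had fold changes above 0, but neither passed (adjusted p = 0.0822 and 0.317).

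The 9 podocyte genes were left out of the candidates for likeness to their own median course over the 8 libraries. The other genes nearest to that course were not podocyte marker genes of any list here. Likeness was the root-mean-square difference of centred log2 CPM over the 8 libraries, which for the 10 nearest ran from 0.07 for Speg to 0.11 for Slc4a8. Among those between them were Rita1, Slc45a4, Arc, Tnfaip2, Eva1a, Zfpm1 and Scrn3, with fold changes of 0.43 to 0.66 on the log2 scale. Podxl itself differed from the median course by 0.01, Synpo by 0.08, Wt1 by 0.09 and Nphs1 by 0.14, against 0.18 for Ptpro, 0.33 for Cdkn1c, 0.38 for Magi2, 0.45 for Clic3 and 0.72 for Tcf21. Had each been a candidate, Podxl would have ranked 1, Synpo and Wt1 3 each, Nphs1 49 and Tcf21 11158. Each of the 9 genes helped to set this median, so a small distance or rank of a member is partly built in. These member values are no evidence that the 9 genes move together. Among the other podocyte genes Gas1 was the nearest, ranked 25 of 12097 candidates. The 8 values of each course share their libraries, so the ranks are a description.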

How the data were processed

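RNA-seq of mouse kidney after I/R was read from 1 deposited table with a column of counts for each of 8 libraries; the values are raw counts per gene symbol, as the authors deposited them, with no normalization. Trim Galore 0.6.2, Salmon 1.10.2, HISAT2 2.2.1, FastQC and the build mm39 appear in the submitters' processing notes, in no stated role; the sources used here name no counting tool, annotation or filter. Among counts of 1 to 20, 68.7% to 70.9% per library were even, against 49.5% to 50.4% above 100, so a count may stand for less than 1 fragment. Library totals ran from 29044405 to 35530421, and this depth covers counting error only. The deposited gene length, per the file headers in bases and of no stated origin, gave CPM per kilobase. Genes were matched by symbol; the identifier column was not used.

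Groups came from the sample titles. edgeR 4.0.16 in R 4.3.3 ran filterByExpr with a minimum count of 10, TMM, glmQLFit and glmQLFTest over all 8 libraries with no covariate, checked on simulated data, and Benjamini-Hochberg adjustment over 15000 genes; SE came from the F statistic. CPM used TMM factors, and log2 CPM a prior count of 2; deviations from the control mean used an offset of 0.05 CPM. Named genes were the 9 members, the 4 genes of smallest p in each list, and the 10 genes nearest in course; the further names (Cd34, Vegfa, Paxx, Wt1os, Nphs1os, Kcnq1ot1, Ren1, and Ddn, Pdlim2, Cttn, Col4a3, Lamb2, Nid2, Itgb1, Mertk, Dpp4, Itgam, Ccr2, Retnlg, Krt20, Sox9 and Lcn2) were chosen after their values were seen, and some genes that met these rules are not reported here. The members and lists were chosen with earlier results of these data known. Alternatives were RLE and upper-quartile factors, DESeq2 1.42.0, limma 3.58.1 voom with quality weights, other filters, a replicate block and leaving out libraries.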

Additional observations from a re-analysis of the deposited data

Results flagged for a closer look

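Within a group of 4 libraries, a value was singled out when its gap to the nearest library exceeded Dixon's critical share of the range of the group, which chance gives in about 1 of 20 groups. Of 158 groups over 79 named genes 12 met this, and none was a group of the 9 podocyte genes. Control 1 was the lowest control for Arhgap24 (120.3 CPM, next 152 CPM). It was the highest control for Cd44 (63.3 CPM, next 19.4 CPM), Akap12 (171 CPM, next 49.1 CPM), S100a8 (34.1 CPM, next 11.5 CPM), Csf3r (53.5 CPM, next 12.0 CPM) and Cxcr2 (11.1 CPM, next 2.06 CPM). Control 3 was the lowest control for Kdr (15.9 CPM, next 32.0 CPM). Among the knockouts, knockout 1 was the highest for Cd44 (12.9 CPM, next 8.77 CPM), Anxa2 (287 CPM, next 192 CPM) and Kcnq1 (51.0 CPM, next 44.7 CPM), knockout 2 the highest for Rita1 (18.4 CPM, next 16.4 CPM) and knockout 4 the lowest for Slc26a4 (79.8 CPM, next 89.5 CPM).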

How the results depend on the processing

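All 9 podocyte genes kept a fold change above 0 in each of the 16 alternatives, and the summed level of the 9 moved by less than its SD with library totals in place of TMM factors. RLE, upper-quartile and both other filters called the same 5 genes; DESeq2 added Clic3 (adjusted p = 0.0270), and limma-voom added Clic3 and Ptpro. Leaving out 1 library gave 1 to 5 called podocyte genes (1, Podxl, without control 3 or knockout 4) and 907 to 1984 called genes in all. Over the same fits the lists ran from 0 to 1 lower (slit diaphragm), 2 to 6 higher and 0 to 3 lower (actin), 0 to 6 higher and 2 to 3 lower (basement membrane), 3 to 8 higher (surface), 0 to 4 higher (endothelium), 0 to 3 higher (mesangial), 0 to 2 lower (parietal), 10 to 11 lower (injured tubule), 2 to 4 higher (proximal tubule), 11 to 17 higher (loop of Henle and distal), 7 to 8 lower (immediate early), 1 to 8 lower (macrophage and neutrophil), and 0 to 3 higher and 3 to 4 lower (family relatives). Without control 1 and knockout 3 together, 2 podocyte genes (Synpo and Podxl) and 1045 genes were called; the slit diaphragm list had 0 lower, the actin list 2 higher and 0 lower, the basement membrane list 0 higher, the surface list 3 higher, and the endothelial, mesangial and family relatives lists 0 higher. DESeq2 called 2997 genes in either direction. It called 5 mesangial genes and 4 family relatives as higher, and 2 parietal genes as lower. limma-voom called 0 slit diaphragm genes as lower, 11 surface and 5 mesangial genes as higher. RLE and both other filters called 2 mesangial genes. With the replicate block (the number in the titles as a factor) 865 genes and 0 of the 9 podocyte genes were called, with adjusted p of 0.0530 for Podxl, 0.0563 for Synpo, 0.0606 for Tcf21, 0.0784 for Nphs1 and 0.0995 for Wt1. Under that block the lists had 0 lower (slit diaphragm and actin), 1 higher and 1 lower (basement membrane), 0 higher (endothelium and mesangial), 4 lower (macrophage and neutrophil) and 1 higher (family relatives). No label says what the numbers mark, and whether they stand for a shared litter or day was not tested. The count columns number the knockouts otherwise than the titles do. A fit or correlation by title number therefore cannot decide whether a litter or day was shared. The deviations of same-numbered libraries correlated at -0.20, 0.04, 0.15 and -0.16 across 15000 genes, and no knockout was closest to its own number. The causes of these shifts were not tested. At 126 to 333 counts per library Magi2 was among the least covered members, with Clic3 (113 to 369).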
